A study of Mus musculus with 2 samples.

Results

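The genes described here write and erase DNA methylation or form the core of polycomb repressive complex 2, and their RNA was measured in the liver of mouse embryos at embryonic day 11.5. They are 10 of the 43346 Ensembl gene rows of the deposited tables, found by mapping Ensembl gene identifiers to the symbols Dnmt1, Dnmt3a, Dnmt3b, Uhrf1, Tet1, Tet2, Tet3, Ezh2, Suz12 and Eed. All 10 had a row in both libraries. The study holds 2 libraries of 1 group, biological replicates 1 and 2, from mice of strain B6NCrl with no allele or treatment named. Embryos of both sexes were pooled for the tissue, and the label of replicate 1 counts 109 of them. Both biosamples carry the same donor record. Each library was made by a SmartSeq protocol, which copies polyadenylated RNA and amplifies it by PCR, from an amount of total RNA equal to 1 cell. The labels call the assay single-cell RNA-seq, but the source is pooled tissue and each library is 1 mixture of cell types. With 1 group and no contrast between conditions, no test between groups was possible and no p-value is given.

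DNA methylation sits mostly on cytosines followed by guanine, the CpG sites. Dnmt1, brought to newly copied DNA by Uhrf1, restores the mark after each round of replication, Dnmt3a and Dnmt3b place it anew, and the Tet enzymes oxidise it as a step towards its removal. Polycomb repressive complex 2 methylates lysine 27 of histone H3 at the promoters of silenced developmental genes, with Ezh2 as the catalytic subunit and Suz12 and Eed as subunits it needs for activity. The liver at this stage is colonised by dividing blood progenitors among hepatoblasts, which give rise to hepatocytes and bile duct cells.

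The expected count is an estimate of the reads per gene. Its total was 33289699 in replicate 1 and 32607453 in replicate 2, so depth differed little between them. It was summed over all 69691 rows, which hold 43346 genes, 97 spike-in RNAs and 26248 entries with numeric identifiers. The labels give the libraries as separate biological replicates, and their tables were not copies of 1 library, with a chi-square per degree of freedom of 814 between their expected counts over 11205 genes. That value sets the libraries against counting noise alone and says nothing of their biology. The markers of hepatoblasts (7 of 7), erythroid cells (7 of 7) and megakaryocytes (4 of 4) all reached a TPM of 1 in each library. TPM is a length-normalised relative abundance. These are the cells the label of fetal liver calls for. Of the markers of other cells, the summed TPM of 5 endothelial ones was close, 73.1 in replicate 1 and 69.6 in replicate 2. Its single markers went both ways, as Lyve1 (44.6 TPM in replicate 1 and 22.6 TPM in replicate 2) and Egfl7 (20.6 and 30.7). Of these 5, 3 were detected in both libraries and 2 in replicate 2 alone. The sums of the markers of macrophages, mesenchyme and heart muscle differed. The summed TPM of 5 macrophage markers was 414 in replicate 1 and 171 in replicate 2, that of 5 mesenchymal markers 177 and 424, and that of 5 heart muscle markers 50.2 and 235. Of these lists 4, 4 and 2 of 5 markers were detected in both libraries. Single markers went against their list. The macrophage marker Adgre1 had 2.83 TPM in replicate 1 and 7.92 TPM in replicate 2, the mesenchymal marker Pdgfrb 11.0 and 0.01, and the heart muscle marker Actc1 43.5 and 30.3. At 0 were the macrophage marker Csf1r in replicate 2, and in replicate 1 the heart muscle markers Myl7 and Myl2 and the endothelial marker Pecam1. These differences stand beside every difference between the libraries given here, and their part in it was not tested. In such mixtures fewer cells of a type and less RNA per cell cannot be told apart.

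Of the 10 genes, 8 reached a TPM of 1 in both libraries, none in a single library, and Dnmt3b and Tet2 in neither. Over all 43346 genes, 15% were detected in both libraries, 9.92% in 1 and 75.1% in neither. Over the 21474 protein-coding genes, 27.3% were detected in both. Detection in these libraries went with level: of protein-coding genes with a mean TPM of 10 to 100, where 7 of the members lie, 74.9% were detected in both and 25.1% in 1. All 7 of those members were detected in both. Tet3, whose mean lies between 5 and 10 TPM, was as well, as were 36.8% of protein-coding genes of that level, while 63.2% of them were detected in 1 library. The mean TPM of the 8 detected genes ran from 6.74 for Tet3 to 96.8 for Uhrf1, and the median over all 10 was 19.3. Over protein-coding genes that averaged a TPM of 1 or more the median was 20.005. The 10 include Dnmt3b and Tet2, which average less than that, so the 2 medians are not of like sets. Summed over the 10 genes, TPM was 223 in replicate 1 and 354 in replicate 2 (289 ± 92.3, SD, n = 2).

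**Figure D1:**
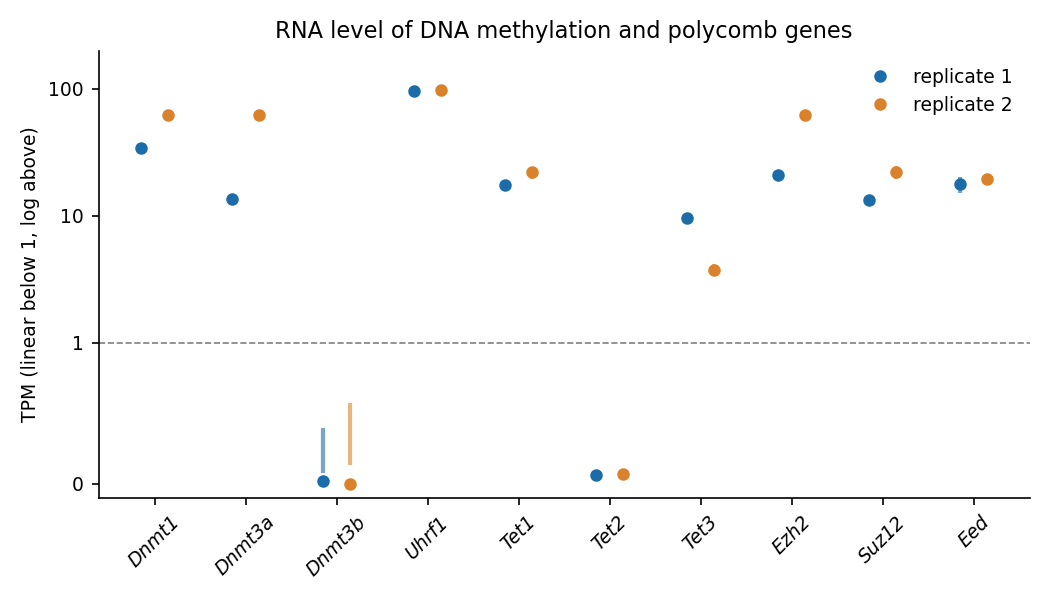
TPM of the 10 genes in replicate 1 (blue, left) and replicate 2 (orange, right), on an axis that is linear below 1 and logarithmic above, with bars for the deposited credibility bounds of the posterior mean TPM. Uhrf1 is highest in replicate 1 and replicate 2 (95.8 and 97.8 TPM), Dnmt3b and Tet2 lie near 0, and the bounds of Dnmt3b lie above its TPM because they belong to another estimate.

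Uhrf1 recognises hemimethylated CpG sites at replicated DNA and recruits Dnmt1 there. Uhrf1 (chromosome 17, 56303321 to 56323486, plus strand, mm10) had 95.8 TPM in replicate 1 and 97.8 TPM in replicate 2, from 9445 and 8623 estimated reads. It was the highest of the 10 genes in both libraries, at rank 1541 of all genes by mean TPM, and of the 8 detected genes its TPM differed least between the libraries as a ratio (96.8 ± 1.42 TPM, SD, n = 2).

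Dnmt1, the maintenance methyltransferase (chromosome 9, 20907209 to 20959888, minus strand, mm10), had 34.1 TPM in replicate 1 and 62.8 TPM in replicate 2, from 5289 and 9622 reads. It was higher in replicate 2 by TPM and by reads, with a log2 ratio of replicate 1 over replicate 2 of -0.84 (pseudocount 1, centred on the median of genes that averaged 10 TPM or more). The fold stayed under 2. The deposited credibility bounds, 32.6 to 34.4 TPM in replicate 1 and 60.5 to 62.9 TPM in replicate 2, did not overlap, but they cover the assignment of reads within 1 library and not the spread between libraries.

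The reads of Dnmt1 were assigned to transcripts with different starts. Dnmt1-201, which starts at position 20952979, received 4119 reads in replicate 1 and 5014 reads in replicate 2, or 77.9% and 52.1% of the gene's reads. Dnmt1-202, which starts further upstream at position 20959888, received 1170 reads (22.1%) in replicate 1 and 4608 reads (47.9%) in replicate 2. The read number of Dnmt1-201 was thus similar in both libraries, and most of the added reads of replicate 2 were assigned to Dnmt1-202. Reads are counted over whole transcripts, and both end at the same position, 20907209. Use of the starts was therefore not measured. Both transcripts are annotated as protein coding and have close lengths, 5370 and 5251 bases. Mouse Dnmt1 is known for separate oocyte and somatic promoters, and the transcripts of the tables were not matched to those forms here. Shown are the 250 bases before each start, from RefSeq promoters of build GRCm38.p6 and on the gene's strand 5′ to 3′. They are given because the share of reads assigned to each transcript differed between the libraries. Capitals mark CpG sites.
Dnmt1 downstream start, chr9:20952980-20953229, minus strand: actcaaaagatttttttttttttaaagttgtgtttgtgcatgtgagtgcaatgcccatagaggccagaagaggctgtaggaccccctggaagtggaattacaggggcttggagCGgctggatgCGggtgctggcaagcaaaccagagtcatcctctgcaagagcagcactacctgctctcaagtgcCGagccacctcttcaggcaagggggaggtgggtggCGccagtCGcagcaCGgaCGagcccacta
Dnmt1 upstream start, chr9:20959889-20960138, minus strand: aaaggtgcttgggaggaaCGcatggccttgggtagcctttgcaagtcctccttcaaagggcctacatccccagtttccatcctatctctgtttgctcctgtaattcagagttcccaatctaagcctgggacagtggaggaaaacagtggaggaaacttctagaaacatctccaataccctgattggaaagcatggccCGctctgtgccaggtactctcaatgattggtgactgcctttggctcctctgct
The window of the downstream start holds 7 CpG sites and that of the upstream start 2. Of all 32851 promoters in the table, 53.7% have fewer CpG sites than the downstream one and 18.8% have fewer than the upstream one.

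Dnmt3a, a de novo methyltransferase (chromosome 12, 3806007 to 3914443, plus strand, mm10), had 13.6 TPM in replicate 1 and 62.8 TPM in replicate 2 (38.2 ± 34.8, SD, n = 2). It was 4.62-fold higher in replicate 2 by TPM, the widest difference of the detected members on that scale, with a log2 ratio of -2.10. By reads it had 2140 in replicate 1 and 3139 in replicate 2, a 1.498-fold difference in CPM, reads scaled to the library total, in the same direction. The estimated mean transcript length behind the TPM was 5424 bases in replicate 1 and 1799.8 bases in replicate 2.

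All 2140 reads of Dnmt3a in replicate 1 were assigned to Dnmt3a-203, with a start inside the gene at position 3891744. In replicate 2, transcripts with internal starts (Dnmt3a-205, at 2328 bases, with all of these reads) received 1564 reads (49.8%), transcripts with the upstream starts between 3807030 and 3807160 received 1170 reads (37.3%), and the 501-base Dnmt3a-210 received 401 reads (12.8%). That short transcript held 54.0% of the gene's TPM in replicate 2, because TPM divides by length. No read was assigned to a transcript with an upstream start in replicate 1. These counts, too, are over whole transcripts, so use of the starts was not measured. An internal promoter of mouse Dnmt3a is known to give the shorter protein form Dnmt3a2, and the internal starts of the tables were not matched to that form here. The 250 bases before an upstream and an internal start are given for the same reason as those of Dnmt1, again with CpG sites in capitals.
Dnmt3a upstream start, chr12:3806910-3807159, plus strand: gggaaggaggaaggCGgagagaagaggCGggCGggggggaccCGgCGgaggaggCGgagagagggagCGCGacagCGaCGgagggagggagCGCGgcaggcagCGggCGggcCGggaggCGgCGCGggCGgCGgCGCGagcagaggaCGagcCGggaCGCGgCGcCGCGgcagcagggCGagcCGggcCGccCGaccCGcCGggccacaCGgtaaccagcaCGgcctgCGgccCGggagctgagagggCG
Dnmt3a internal start, chr12:3891494-3891743, plus strand: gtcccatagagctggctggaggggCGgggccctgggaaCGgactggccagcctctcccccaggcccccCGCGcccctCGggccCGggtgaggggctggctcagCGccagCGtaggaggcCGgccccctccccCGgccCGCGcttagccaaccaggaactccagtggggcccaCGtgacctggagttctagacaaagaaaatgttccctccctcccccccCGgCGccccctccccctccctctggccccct
The upstream window holds 40 CpG sites, more than 98.7% of all promoters, and the internal window 15, more than 72.7% of them. The median over all promoters was 6, with quartiles at 2 and 16.

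Dnmt3b, the other de novo methyltransferase (chromosome 2, 153649450 to 153687730, plus strand, mm10), was read 2 times in replicate 1 (0.02 TPM) and not at all in replicate 2, where a count of 0 allows up to 3 reads or 0.092 CPM (one-sided 95% limit). PCR copies are not independent molecules, so this limit and the intervals given here cover counting error only. Of protein-coding genes, 55.9% were likewise under a TPM of 1 in both libraries. The sum of Dnmt3a and Dnmt3b was almost wholly Dnmt3a, and Dnmt1 over that sum was 2.51 in replicate 1 and 1.00 in replicate 2 by TPM (1.75 ± 1.06, SD, n = 2). Counted as reads per base of the longest transcript of each gene, the ratio was 4.07 in replicate 1 and 5.05 in replicate 2, so the value depends on the length assigned to Dnmt3a. By TPM, Uhrf1 over Dnmt1 was 2.81 in replicate 1 and 1.56 in replicate 2 (2.18 ± 0.884, SD, n = 2). The promoter of Dnmt3b is shown as that of an undetected member, with its CpG sites in capitals.
Dnmt3b, chr2:153649199-153649448, plus strand: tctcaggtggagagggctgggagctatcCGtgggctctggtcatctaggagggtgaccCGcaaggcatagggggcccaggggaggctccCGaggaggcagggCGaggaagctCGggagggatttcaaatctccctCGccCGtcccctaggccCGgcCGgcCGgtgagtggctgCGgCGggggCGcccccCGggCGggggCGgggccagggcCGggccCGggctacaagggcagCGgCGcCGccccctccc
It holds 21 CpG sites, more than 83.7% of all promoters.

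The Tet enzymes oxidise 5-methylcytosine. Tet1 (chromosome 10, 62804570 to 62908996, minus strand, mm10) had 17.5 TPM in replicate 1 and 22.1 TPM in replicate 2 (19.8 ± 3.26, SD, n = 2), which are close. Its reads were not: 2407 in replicate 1 and 431 in replicate 2, a CPM 5.47-fold higher in replicate 1. The full-length protein-coding transcript Tet1-201, of 13986 bases, had 1868 reads in replicate 1 and 84.0 in replicate 2. In replicate 2, 323 reads were assigned to Tet1-204, a 618-base transcript annotated as a target of nonsense-mediated decay, which held 95.6% of the gene's TPM there. In replicate 1, 539 reads were assigned to the 1505-base Tet1-202, annotated as a processed transcript, with 74.0% of the TPM. Protein-coding transcripts alone gave 4.55 TPM in replicate 1 and 0.97 TPM in replicate 2.

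Tet3 (chromosome 6, 83362373 to 83459084, minus strand, mm10) had 9.70 TPM in replicate 1 and 3.78 TPM in replicate 2 (6.74 ± 4.19, SD, n = 2), from 1691 and 1052 reads. It was the sole detected member that was higher in replicate 1 by TPM. Protein-coding Tet3-202, of 10904 bases, had 1284 reads in replicate 1 and 1009 reads in replicate 2, and 4.02 and 3.18 TPM. The wider difference of the gene lay in the 2523-base Tet3-201, annotated as a processed transcript, with 407 reads in replicate 1 and 43.1 reads in replicate 2.

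Tet2 (chromosome 3, 133463679 to 133545139, minus strand, mm10), which in adult blood is known for its role in stem cells, had 0.06 TPM in replicate 1 and 0.07 TPM in replicate 2. These rest on 15 reads in replicate 1 (0.451 CPM, exact two-sided 95% Poisson interval 0.252 to 0.743) and 19 reads in replicate 2 (0.583 CPM, 0.351 to 0.910). Reads were thus present in both libraries, at a level far under the detection threshold. Of the summed TPM of the Tet genes, Tet1 took 64.2% in replicate 1 and 85.2% in replicate 2, and Tet3 took 35.6% and 14.6%. These shares depended on the transcripts counted. With protein-coding transcripts alone the share of Tet1 was 52.7% in replicate 1 and 23.0% in replicate 2, and as reads per base of the longest transcript 51.7% and 23.3%, so the order of the libraries was the reverse of that by TPM. The promoter of Tet2 has the most CpG sites of the 15 promoters found for the members, and is shown for that, with CpG sites in capitals.
Tet2, chr3:133544391-133544640, minus strand: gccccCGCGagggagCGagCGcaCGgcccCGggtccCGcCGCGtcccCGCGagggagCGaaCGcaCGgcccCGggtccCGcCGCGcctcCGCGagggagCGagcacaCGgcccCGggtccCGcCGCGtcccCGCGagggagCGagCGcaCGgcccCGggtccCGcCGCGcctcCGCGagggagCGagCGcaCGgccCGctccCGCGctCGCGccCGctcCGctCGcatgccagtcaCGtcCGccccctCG
Its 51 CpG sites are more than 99.9% of all promoters hold, while its RNA was under a TPM of 1 in both libraries. The window with the fewest of the 15, with 2 CpG sites, is that of the transcript Dnmt1-202, which had 7.68 TPM in replicate 1 and 30.5 TPM in replicate 2. These are only the ends of the range, and a relation between CpG number and RNA level was not tested.

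Ezh2, the methyltransferase of polycomb repressive complex 2 (chromosome 6, 47530139 to 47595341, minus strand, mm10), had 21.1 TPM in replicate 1 and 62.7 TPM in replicate 2 (41.9 ± 29.4, SD, n = 2), from 1455 and 3979 reads. It was higher in replicate 2 by TPM, with a log2 ratio of -1.50, and by reads, 2.79-fold in CPM. Ezh2-201 led in both libraries, with 58.4% of the gene's TPM in replicate 1 and 61.6% in replicate 2. Ezh1, its paralog, had no read in replicate 1 and 2.30 TPM from 239 reads in replicate 2.

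Suz12, a subunit that binds the complex to chromatin (chromosome 11, 79993106 to 80034123, plus strand, mm10), had 13.5 TPM in replicate 1 and 22.2 TPM in replicate 2 (17.8 ± 6.19, SD, n = 2). By reads the order was the other way, with 1500 in replicate 1 and 492 in replicate 2, a CPM 2.99-fold higher in replicate 1. The 4303-base protein-coding Suz12-206 had 1474 reads in replicate 1 and 196 in replicate 2. In replicate 2, 183 reads fell to the 611-base Suz12-205, annotated as a retained intron, and 113 to the 553-base Suz12-204, annotated as a target of nonsense-mediated decay. Protein-coding transcripts gave 11.9 TPM in replicate 1 and 1.59 TPM in replicate 2, the reverse order of the gene's TPM.

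Eed, the subunit that reads the methylated histone tail (chromosome 7, 89954654 to 89980983, minus strand, mm10), had 17.95 TPM in replicate 1 and 19.6 TPM in replicate 2 (18.8 ± 1.17, SD, n = 2). These close levels went with different transcripts. In replicate 1, 185 of 202 reads were assigned to the 454-base Eed-202, annotated as a retained intron, with 98.4% of the TPM. In replicate 2 all 1132 reads were assigned to the 2065-base protein-coding Eed-201. Protein-coding transcripts gave 0.29 TPM in replicate 1 and 19.6 TPM in replicate 2, and CPM was 5.72-fold higher in replicate 2. By TPM, Ezh2 over Suz12 was 1.57 in replicate 1 and 2.82 in replicate 2, Ezh2 over Eed 1.18 and 3.20, and Suz12 over Eed 0.749 and 1.13. These ratios did not hold under other ways of counting. With protein-coding transcripts alone, Ezh2 over Suz12 was 1.78 in replicate 1 and 34.3 in replicate 2, Ezh2 over Eed 72.9 and 2.79, and Suz12 over Eed 40.9 and 0.0811. As reads per base of the longest transcript, Ezh2 over Suz12 was 1.60 in replicate 1 and 13.3 in replicate 2, Ezh2 over Eed 5.61 and 2.74, and Suz12 over Eed 3.51 and 0.205.

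**Figure D2:**
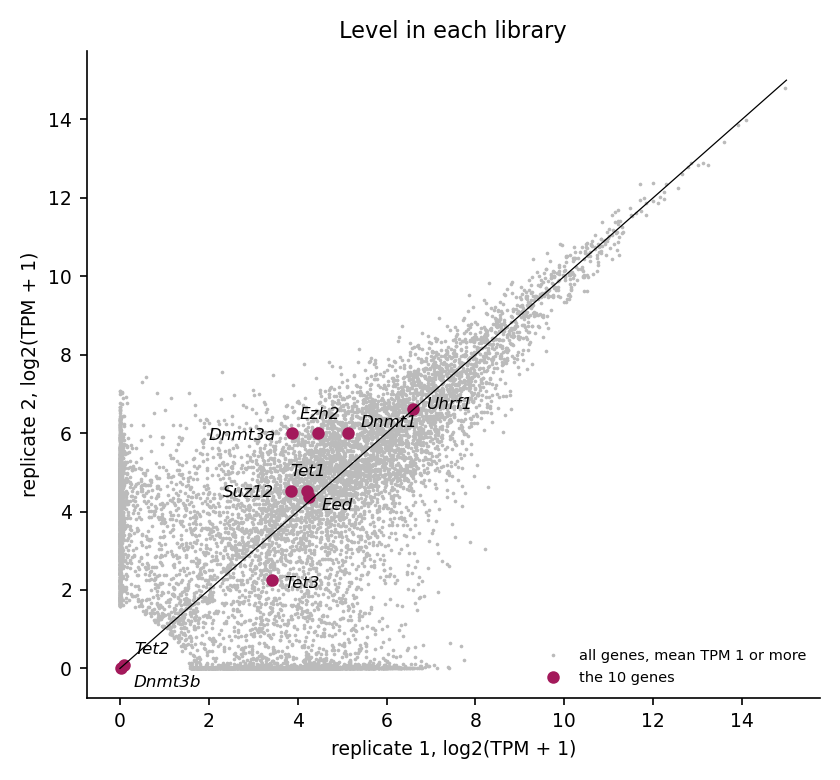
Level of every gene that averaged a TPM of 1 or more (grey) and of the 10 genes (purple), as log2(TPM + 1) in replicate 1 on the horizontal and in replicate 2 on the vertical axis, with the line of equal level. Uhrf1, Tet1 and Eed lie on or near the line, Dnmt3a and Ezh2 lie above it and Tet3 below it.

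Between the libraries, 7 members averaged 10 TPM or more and were compared by the centred log2 ratio. Dnmt3a and Ezh2 were past 2-fold, both higher in replicate 2, and none was past 2-fold higher in replicate 1. Over the 6801 genes of that level, 51.1% were past 2-fold, 25.8% higher in replicate 1 and 25.2% higher in replicate 2, so 2 of 7 members is no more than the background. Of protein-coding genes at a mean of 10 to 100 TPM, 60.3% were past 2-fold. When ratios were centred on the spike-in RNAs instead, all of them moved by 0.39 on the log2 scale. The shares were then 33% higher in replicate 1 and 19.9% higher in replicate 2, and replicate 1 held 62.4% of the calls past 2-fold, against 50.6% with centring on genes. With spike-in centring Dnmt3a and Ezh2 were still past 2-fold, while the signs of Uhrf1, Tet1 and Eed changed. By CPM, 4 of the 7 were past 2-fold, beside 50.8% of genes: Tet1 and Suz12 higher in replicate 1, Ezh2 and Eed higher in replicate 2, and no longer Dnmt3a, at -0.54. With protein-coding transcripts alone 5 of the 7 were, beside 48.5% of genes: those 4 in the same directions and Dnmt3a, higher in replicate 2. That 48.5% is over all 6801 genes, of which 6377 are protein-coding genes. It is lowered by genes without a protein-coding transcript, which cannot be past 2-fold. Tet3, under the level for this comparison, had a log2 ratio of 1.19. The median size of the log2 ratio was 0.66 over the 7 members and 1.03 over all 6801 genes.

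TPM and CPM did not order the libraries alike. Of the 8 detected members, 7 were higher in replicate 2 by TPM and 1 in replicate 1, while by CPM 4 were higher in each. Uhrf1, Tet1 and Suz12 changed order between the measures, 3 of 8, where 6.27% of protein-coding genes detected in both libraries did so. For Uhrf1 both differences were small, with 284 CPM in replicate 1 and 264 CPM in replicate 2. The effective length used for TPM was more than 2-fold apart between the libraries for 4 of 8 (Dnmt3a, Tet1, Suz12 and Eed), and for 8.16% of the protein-coding genes. The shares of 6.27% and 8.16% cover genes of all levels, also those with 1 annotated transcript, whose length cannot change. All 8 members have more than 1, so these shares are not a matched background for them. What sets the assignment to short transcripts was not tested.

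**Figure D3:**
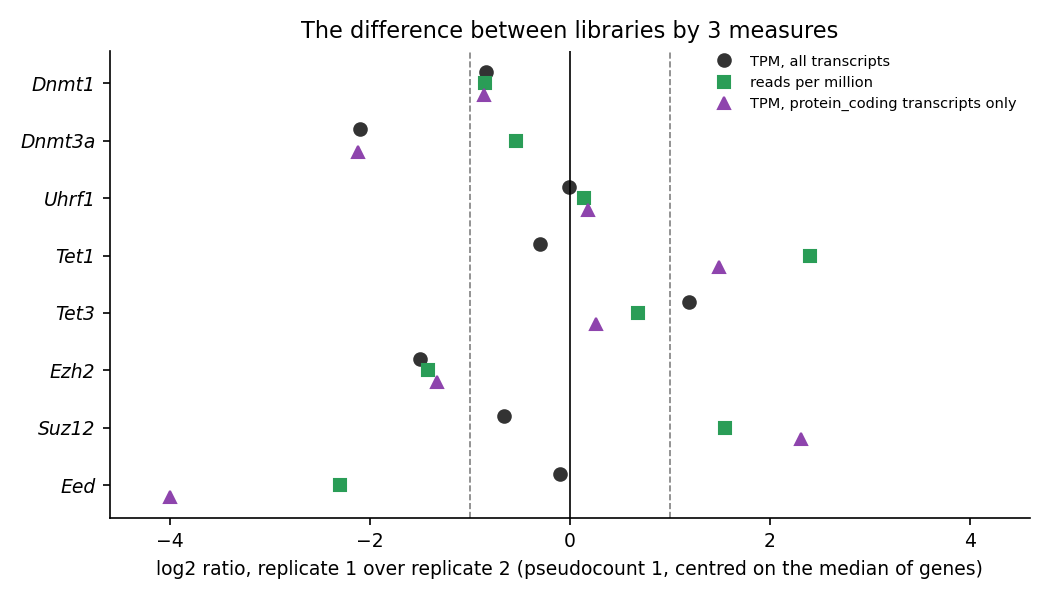
Log2 ratio of replicate 1 over replicate 2 for the 8 detected genes (pseudocount 1, centred on the median of genes) by TPM (circles), reads scaled to the library total (squares, CPM) and TPM of protein-coding transcripts alone (triangles), with dashed lines at 2-fold. The measures lie together for Dnmt1, Uhrf1 and Ezh2 and apart for Dnmt3a, Tet1, Suz12 and Eed, where Eed spans -0.10 by TPM to -3.997 by protein-coding transcripts.

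A leading transcript, the one with the highest TPM of its gene, was the same in both libraries for 3 of 8 members (Dnmt1, Uhrf1 and Ezh2). Over the 4445 genes of 10 TPM or more on average with 2 or more transcripts, 62.5% kept theirs, and 54.8% of protein-coding genes with a mean TPM of 10 to 100 did. The 8 include Tet3, which did not keep its leading transcript and averaged 6.74 TPM, under the level of both shares. Uhrf1-204 led with 47.0% of the gene's TPM in replicate 1 and 59.8% in replicate 2. The leading transcript was annotated as protein coding for 5 of 8 members in replicate 1 and 6 of 8 in replicate 2, beside 87.4% and 86.6% of the protein-coding genes. With protein-coding transcripts alone, 6 of the 8 still reached a TPM of 1 in both libraries, without Tet1 and Eed, and so did 92.6% of the protein-coding genes. These shares of protein-coding genes, too, cover all levels and genes with 1 transcript, and are not matched to the members. Uhrf1 also has starts apart from each other: transcripts that begin between 56303321 and 56303400 had 48.6% of its reads in replicate 1 and 30.5% in replicate 2, and those that begin between 56304313 and 56304348 had 51.2% and 65.6%. As for Dnmt1, these are reads of whole transcripts and not a measure of the use of the starts.

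**Figure D4:**
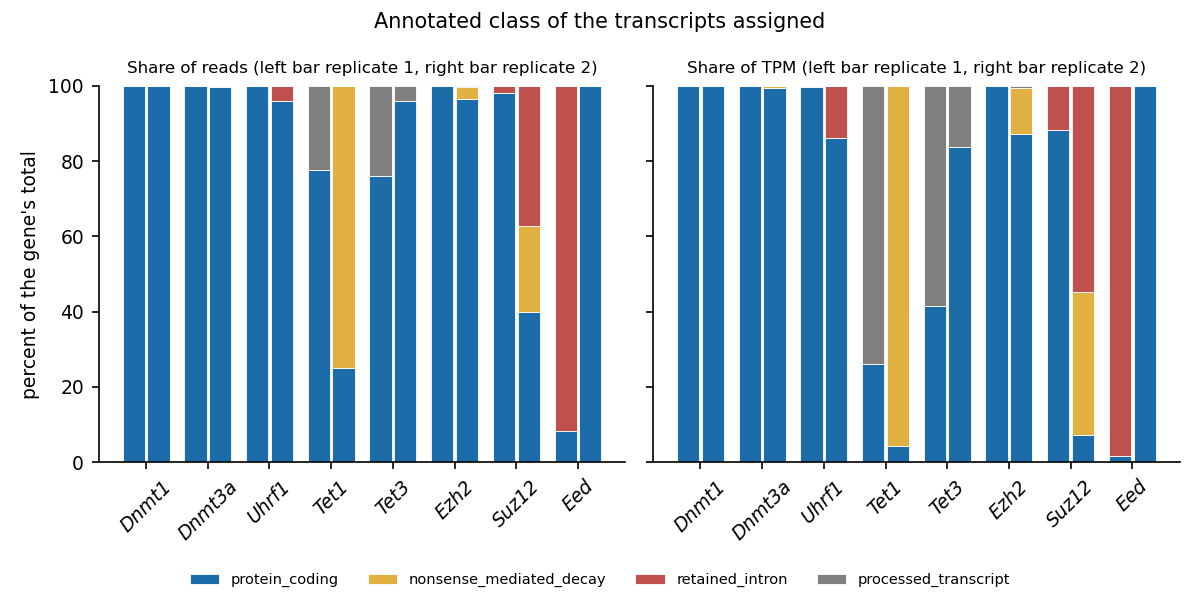
Percent of each detected gene's reads (left panel) and TPM (right panel) by the annotated class of the transcript, with replicate 1 as the left bar and replicate 2 as the right bar of each pair. Protein-coding transcripts hold 100% of the TPM of Dnmt1 in both libraries, but 88.2% and 7.16% of that of Suz12, and 1.62% and 100% of that of Eed, in replicate 1 and replicate 2.

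Of 14 annotated genes that overlap a member, 9 had a row and 1 reached a TPM of 1. Gm26563, a long noncoding RNA gene on the opposite strand within Suz12 (chromosome 11, 80017354 to 80029868), had 5.68 TPM from 272 reads in replicate 1 and 0.02 TPM from 1 read in replicate 2. Whether the counting used strand is not given in the sources used here, so its reads and those of Suz12 cannot be told apart with certainty. The annotated antisense genes of Dnmt3a and Dnmt3b had at most 1 read in a library.

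Over the 2 libraries, the protein-coding genes whose levels were nearest to those of Dnmt1, by Euclidean distance in log2(TPM + 1), were Ivd (33.6 TPM in replicate 1 and 62.6 in replicate 2), Pdcd6ip (33.6 and 62.1) and Plod3 (35.0 and 63.6), with 10 genes within a distance of 0.1. Nearest to Ezh2 were Cln3, Pmm2 and Ccnl2, with 13 genes within 0.1. Nearest to Tet2 were 2200002D01Rik, Dll1 and Slc7a14, with 323 genes within 0.1. With 2 libraries such a likeness is a likeness of levels in these samples and says nothing more.

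The RefSeq table gave 15 promoters for the 10 genes. Their CpG numbers ran from 2 at the upstream start of Dnmt1 to 51 at Tet2, with 37 at Suz12, 23 at Ezh2, 17 at Tet3, 15 at Tet1, 12 at Eed, and 10 and 30 at the starts of Uhrf1. A further start of Dnmt1, that of Dnmt1-203, has 26 but no read was assigned to that transcript, and a further start of Dnmt3a has 38. The windows of Tet1 and Eed lie at the starts of Tet1-207 and Eed-210, which are not among the transcripts quantified here. The E2F motif, searched as TTTGGCGC or TTTCCCGC on both strands, was in 1 of the 15 windows, that of Suz12, and in 1.30% of all promoters. E2F factors are known regulators of genes of DNA replication, and a match is a description of letters, not of binding.

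Partners of the DNA methyltransferases were detected unevenly. Of 10 such genes, 5 were detected in both libraries, 1 in replicate 2 alone and 4 in neither. Trim28, a corepressor of retroelements, was the highest, with 77.9 TPM in replicate 1 and 204 TPM in replicate 2. Usp7, a deubiquitinase that acts on Uhrf1 and Dnmt1, had 58.2 TPM in replicate 1 and 42.8 TPM in replicate 2. Hells, a chromatin remodeller needed for DNA methylation, had 35.7 and 31.2 TPM. Dnmt3l, the cofactor of de novo methylation in germ cells, and Dppa3, an early embryo factor, had no read in either library. Trdmt1, an RNA methyltransferase once named Dnmt2, had 1 read in all, in replicate 2.

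Among 7 proteins that bind methylated CpG sites or related sequences, 2 were detected in both libraries, 1 in replicate 1 alone, 2 in replicate 2 alone and 2 in neither. Mbd3, a subunit of the NuRD complex, had 121 TPM in replicate 1 and 65.0 TPM in replicate 2, and Mbd4, a DNA glycosylase, had 19.0 and 15.7 TPM. Zbtb33 had 22.4 TPM in replicate 2 and no read in replicate 1. Zbtb4 had no read in either library.

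Of 6 genes that act with the Tet enzymes or complete demethylation by repair, 3 were detected in both libraries, 1 in each library alone and 1 in neither. Apex1, the endonuclease of base excision repair, had 232 TPM in replicate 1 and 242 TPM in replicate 2. Tdg, the glycosylase that removes oxidised methylcytosine, had 98.9 and 118 TPM, while the summed TPM of the Tet genes was 27.3 in replicate 1 and 26.0 in replicate 2. Ogt, a glycosyltransferase that binds Tet proteins, had 174 TPM in replicate 1 and 37.4 TPM in replicate 2. Gadd45b had no read in either library.

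Of 9 other genes of polycomb repressive complex 2, 5 were detected in both libraries, 2 in replicate 2 alone and 2 in neither. Rbbp7 and Rbbp4, histone-binding subunits that other complexes share, had 291 and 165 TPM in replicate 1, and 243 and 262 TPM in replicate 2. Mtf2, a subunit that helps bring the complex to CpG-rich DNA, had 135 TPM in replicate 1 and 65.7 TPM in replicate 2. Phf1 and Epop had no read in either. Of 20 genes of polycomb repressive complex 1, which ubiquitinates histone H2A, 7 were detected in both libraries, 4 in replicate 1 alone, 2 in replicate 2 alone and 7 in neither. Kdm2b, which binds unmethylated CpG sites, had 39.9 TPM in replicate 1 and 18.8 TPM in replicate 2. Rnf2, the ubiquitin ligase, had 37.2 and 14.2 TPM, and its paralog Ring1 had no read in either library. Bmi1, a partner of the ligase known for its role in blood stem cells, had 49.6 TPM in replicate 2 and no read in replicate 1. Pcgf1 and Pcgf5, relatives of Bmi1, had no read in either.

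All 5 genes that act against polycomb marks, the demethylases of histone H3 lysine 27 and subunits of the H2A deubiquitinase, were detected in at least 1 library, 3 of them in both. Bap1, the deubiquitinase, had 28.8 TPM in replicate 1 and 32.9 TPM in replicate 2. Its partner Asxl2 had 28.6 and 25.8 TPM, and Kdm6b, a demethylase, had 7.06 and 2.06 TPM. Pooled over these lists, 25 of 57 genes were detected in both libraries. Over all protein-coding genes it was 27.3%, the share to set beside each single list as well, and 48.7% of them had no read in either library. The lists were not matched to those genes in level and were chosen with earlier results known, so these counts are a description only. As for Tet1 and Eed, the TPM of several rested on other transcript classes. Protein-coding transcripts gave 6.04 TPM of Trim28 in replicate 1 and 17.4 TPM in replicate 2, and for Ogt 28.2 and 15.4 TPM. For Asxl2 they gave 26.2 TPM in replicate 1 and 0.84 TPM in replicate 2. The order of the libraries turned for Usp7 (9.85 TPM in replicate 1 and 12.8 TPM in replicate 2), Hells (29.3 and 30.5), Rbbp4 (55.7 and 41.0) and Kdm2b (16.6 and 18.8). With these transcripts alone, 21 of the 57 genes were detected in both libraries.

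Most genes that these systems are known to keep silent were not detected. Of 18 developmental regulators known as polycomb targets, 16 were detected in neither library and 13 had no read at all, including Hoxb1. Over all protein-coding genes, 55.9% were detected in neither and 48.7% had no read. Gata6, a transcription factor with roles in liver formation, was the sole one detected in both, with 8.62 TPM in replicate 1 and 12.2 TPM in replicate 2. Hoxb4 had 5.98 TPM in replicate 1 and 0.32 TPM in replicate 2. All 14 germline genes known to be silenced by DNA methylation in the body, among them Dazl, Ddx4 and Sycp1, had no read in either library. At these depths a count of 0 allows, by the same one-sided limit, up to 0.0901 CPM (replicate 1) or 0.092 CPM (replicate 2), and neither methylation nor histone marks were measured here. In contrast all 10 genes of S phase and proliferation were detected in both libraries, led by Cdk1, the kinase of mitotic entry (503 TPM in replicate 1 and 337 in replicate 2), Pcna, the replication clamp (349 and 339), and Rrm2, a subunit of ribonucleotide reductase (296 and 324).

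**Figure D5:**
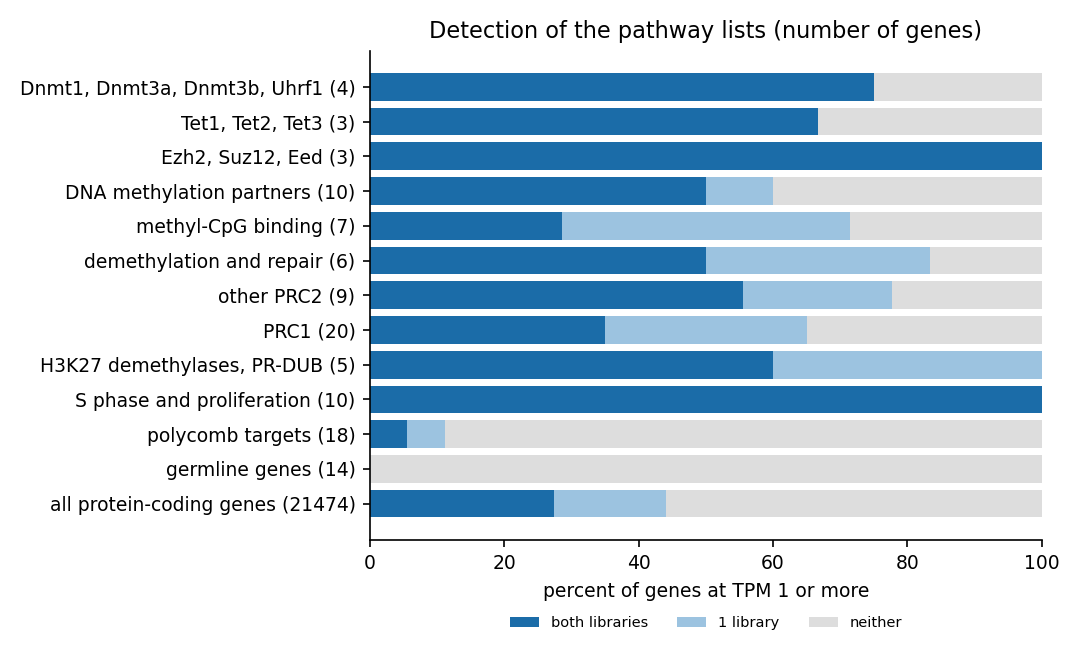
Percent of the genes of each list that reached a TPM of 1 in both libraries (dark blue), in 1 library (light blue) or in neither (grey), with the number of genes in brackets and all protein-coding genes at the bottom. All 3 core genes of polycomb repressive complex 2 and all 10 genes of S phase are detected in both libraries, and all 14 germline genes in neither.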

How the data were processed

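Gene and transcript tables of 2 libraries of 1 group, deposited by the authors, were used. Per the file headers, the deposited expected counts are estimated reads, the deposited TPM and FPKM values are abundances normalised for length, and the deposited percent is each transcript's share of its gene. The deposited posterior mean TPM values and the score columns, which hold the authors' credibility bounds, are other estimates of the same reads. Per the submitters' processing notes the genome is mm10 with GENCODE M4. Which aligner and quantifier were used is not given in the sources used here. Symbols, coordinates and transcript classes came from GENCODE M21 by identifier without version: 42462 of 43346 genes and 97.9% of 103639 transcripts matched. Promoter sequences came from the RefSeq table of build GRCm38.p6. Of the transcripts annotated to start at a member's promoter, 15 of 15 matched it on their first bases. No transcript starts exactly at the promoters of Dnmt3b (153649449), of Uhrf1 at 56303337 or of Dnmt3a at 3806980, so these were not checked.

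With 1 group, no test was run. Values are given per library and as mean ± SD over 2 libraries. Detection means a TPM of at least 1. Ratios are log2((TPM + 1) of replicate 1 / (TPM + 1) of replicate 2), centred on the median of genes averaging 10 TPM or more, which understates the change of low genes. TPM depends on the length assigned to a gene, so CPM, computed from the expected counts, and protein-coding transcripts alone are given beside it. Expected counts over all rows, spike-in RNAs included, summed to 33289699 in replicate 1 and to 32607453 in replicate 2, and CPM was scaled to these totals. Spike-in RNAs took 5.83% and 7.68% of TPM. The 10 genes and all lists were chosen with earlier results of these data known. The genes named are the 10 members, of each list the 3 highest by mean TPM and up to 3 under a TPM of 1 in both libraries, the 3 genes nearest to each of Dnmt1, Ezh2 and Tet2, and overlapping genes with a TPM of at least 1. A few genes that this rule names are not reported here. Others named (Ezh1 and marker genes) were chosen as a paralog or after their values were seen. Proteins were not analysed here. The computations were run in Python 3.11.15 with pandas 2.3.3, numpy 2.4.6 and scipy 1.17.1. Only the 2-fold call from the log2 ratio was tested on simulated data, with counting noise alone and the same effective length in both libraries. These libraries differ by more than that, and the other steps were not tested so. Alternatives covered the threshold, pseudocount, centring, unit, transcript class and leaving out each library.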

Additional observations from a re-analysis of the deposited data

How the results depend on the processing

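The number of members past 2-fold between the libraries was 2 of 7 by TPM, 4 by CPM from expected counts (beside 50.8% of genes) and 5 with protein-coding transcripts alone (beside 48.5%), an alternative chosen after seeing the data. The 48.5% counts genes without a protein-coding transcript, which cannot be past 2-fold. Dnmt3a was no longer past 2-fold by CPM, and Tet1 and Suz12, lower in replicate 1 by TPM, were past 2-fold higher there by both alternatives. The members with the same leading transcript were 3 by TPM and 5 by expected count. Dnmt1 over the sum of Dnmt3a and Dnmt3b was 1.75 by TPM, 4.56 as reads per base of the longest transcript, also chosen after seeing the data, and 1.00 to 2.51 with 1 library left out. In these cases the alternative itself changes the length or the transcripts counted. The number detected in both libraries was 8, within 6 to 9 over all thresholds and units tried (6 with protein-coding transcripts, without Tet1 and Eed), and 8 with either library left out. The 57 pathway genes detected in both were 25, within 18 to 29. Of 70 alternative values of the members' log2 ratios, 21 moved beyond the 95% counting interval. The 70 include ratios without centring and ratios without the filter on low values, which are the same values. Their shift from the main values is smaller than the interval of every member. None of them could move, so 21 of 70 understates the dependence on processing. Beyond the spread between the libraries (SD, n = 2) moved 7 of 50 mean TPM values and 8 of 30 ratios between members other than that of Dnmt1 to the sum of Dnmt3a and Dnmt3b. The 50 and the 30 include values with 1 library left out, which cannot move by this rule. With n = 2, each library lies within the SD of their mean. The 30 also include ratios by FPKM, which repeat those by TPM, so these shares understate the dependence on processing. Of 36 detection counts of single lists, 3 moved by over 1.5 times. No paired analysis was possible because the samples form 1 group. With 1 library per replicate, each from 1 cell-equivalent of RNA, a gene at 0 in a single library has no replicate check.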
